A study of Mus musculus with 9 samples.

Results

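The axon guidance ligands and receptors described here are the netrins with their receptors Dcc and Unc5, the Slits with their Robo receptors, the semaphorins with neuropilins and plexins, and the ephrins with their Eph receptors. They were taken by symbol from the protein-coding genes of the count files, which gave 68 genes of 54232 listed, 34 of them ligands and 34 receptors. Of the 68, 63 had enough reads to be tested, among 15712 genes tested in all.

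RNA was sequenced from cultured mouse cortical neurons of the CD1 stock, labelled wildtype, in 3 groups of 3 libraries. The PA + PS2 libraries carry the names IKVAV and PEDOT-S-OH, the PA libraries the name IKVAV, and the control libraries the name PDL. PA is a peptide amphiphile, a peptide with a fatty tail that assembles into fibres, IKVAV is a cell-binding stretch of laminin, and PEDOT polymers conduct electricity. What PS2 and PDL stand for is not given in the labels. Controls carry the treatment label peptide amphiphile too, as do all 9 libraries, so the groups follow the titles. Nothing in the labels says that the 3 repeats were separate cultures, so the p-values measure the spread between these libraries, which may be technical, and they give no times, amounts or ages.

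Guidance cues steer growing axons by binding receptors on the growth cone. Netrin-1 attracts through Dcc and repels through Unc5 receptors, Slits repel through Robos, secreted class 3 semaphorins act through a neuropilin joined to a plexin, and most membrane-bound semaphorins bind plexins directly. Ephrins are held on the cell surface, ephrin-As by a lipid anchor and ephrin-Bs by a membrane-spanning segment, and signal to Eph receptor kinases on the cell they touch. In the developing cortex these families guide the corpus callosum and the axons between cortex and thalamus, and several of them act later at synapses.

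Read totals ran from 20746851 to 27237398 per library. Neuronal markers checked the label: Map2, a microtubule protein of dendrites, averaged 2066 CPM (counts per 1000000 reads of the library) in PA + PS2, 2099 in PA and 2091 in control, and 8 neuronal markers together took 6152 to 7299 CPM in any library. The cultures also held other cells. The 10 markers of fibroblasts, pericytes and meninges summed to 12.7 to 58.6 CPM in PA + PS2, 91.5 to 161 in PA and 138 to 198 in control, and the 8 markers of dividing cells to 54.1 to 75.6, 111 to 188 and 81.3 to 218 CPM in the same order. The endothelial marker Cldn5 had no read in 8 of the 9 libraries and Cdh5 none in 4. PA repeat 1 stood apart for the guidance genes: their median log2 level lay 0.20 above the mean of the 9 libraries there, against -0.08 to 0.08 in the other 8.

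To show where the genes at the ends of the range start, the promoters of 2 receptors and 2 ligands are printed from RefSeq (build GRCm38.p6, 250 bases before to 50 after a start), 5′ to 3′, with each CG dinucleotide in capitals. Robo1 and Robo4 are the highest and lowest of the Robos here, and Slit2 and Slit3 are the Slits with the lower fold changes in PA + PS2.
Robo1, chr16:72662899-72663198, plus strand, 15 CG: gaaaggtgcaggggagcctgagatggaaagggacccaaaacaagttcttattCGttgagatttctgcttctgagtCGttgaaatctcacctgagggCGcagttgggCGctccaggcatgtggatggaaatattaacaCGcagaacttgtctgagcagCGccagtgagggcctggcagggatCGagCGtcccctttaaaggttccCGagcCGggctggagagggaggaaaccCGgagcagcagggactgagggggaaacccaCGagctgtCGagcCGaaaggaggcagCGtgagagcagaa
Robo4, chr9:37401722-37402021, plus strand, 2 CG: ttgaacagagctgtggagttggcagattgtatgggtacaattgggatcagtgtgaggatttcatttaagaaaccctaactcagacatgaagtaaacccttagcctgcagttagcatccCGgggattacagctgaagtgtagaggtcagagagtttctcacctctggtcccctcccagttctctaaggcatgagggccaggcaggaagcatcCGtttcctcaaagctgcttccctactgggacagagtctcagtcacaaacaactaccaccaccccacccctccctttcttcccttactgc
Slit2, chr5:47982905-47983204, plus strand, 30 CG: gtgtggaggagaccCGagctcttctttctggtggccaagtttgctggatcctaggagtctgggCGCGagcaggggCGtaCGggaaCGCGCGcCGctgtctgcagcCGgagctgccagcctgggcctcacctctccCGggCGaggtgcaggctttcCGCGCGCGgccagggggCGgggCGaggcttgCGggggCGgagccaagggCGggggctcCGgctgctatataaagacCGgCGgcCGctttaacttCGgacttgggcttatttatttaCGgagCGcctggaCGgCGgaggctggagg
Slit3, chr11:35121206-35121505, plus strand, 41 CG: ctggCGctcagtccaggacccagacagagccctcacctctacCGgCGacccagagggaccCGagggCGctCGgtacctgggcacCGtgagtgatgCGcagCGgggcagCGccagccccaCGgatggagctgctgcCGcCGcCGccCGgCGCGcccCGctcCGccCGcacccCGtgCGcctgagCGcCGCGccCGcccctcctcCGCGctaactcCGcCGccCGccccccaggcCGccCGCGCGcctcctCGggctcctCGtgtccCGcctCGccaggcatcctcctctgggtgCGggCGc
The starts of Robo1, Robo4, Slit2 and Slit3 used here lie inside the longer gene spans that GENCODE gives, that of Robo1 by far the deepest. A window was found for 58 of the 68 genes, and for a gene with several windows the one with most CG was taken. The 53 tested guidance genes had a median of 23 CG per window, from 2 to 56, close to the median of 22 over all 11198 tested genes with a window. The 5 untested guidance genes had a median of 8, from 2 to 20, and the 15827 untested genes of that table a median of 4. At least 1 CG, read on either strand, occurs in 94.6% of the 32851 windows. No methylation was measured, so the counts describe the letters only.

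The guidance genes were abundant in these cultures, and the receptors of semaphorins and the ephrin-Bs led. Levels of different genes are compared as CPM per kilobase of merged exon in the control libraries. The 63 tested guidance genes had a median of 11 on that scale, against 4.18 over all tested genes, and 46 of the 68 lay above 4.18. Efnb3 and Efnb2, transmembrane ephrins, stood highest with 74.1 ± 8.98 and 71.7 ± 0.332 (SD, n = 3), followed by Plxna4, a receptor for class 3 and class 6 semaphorins, with 68.4 ± 5.79. These 3 do not differ beyond their spread. Plxna2 and Plxna1 followed with 54.2 ± 4.38 and 53.1 ± 4.32, beside Sema7a, the lipid-anchored semaphorin, with 52.5 ± 7.90. Merged exons count every annotated transcript, so a gene with long rare exons, such as Slit2 with 25433 merged bases, reads low on this scale.

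**Figure D1:**
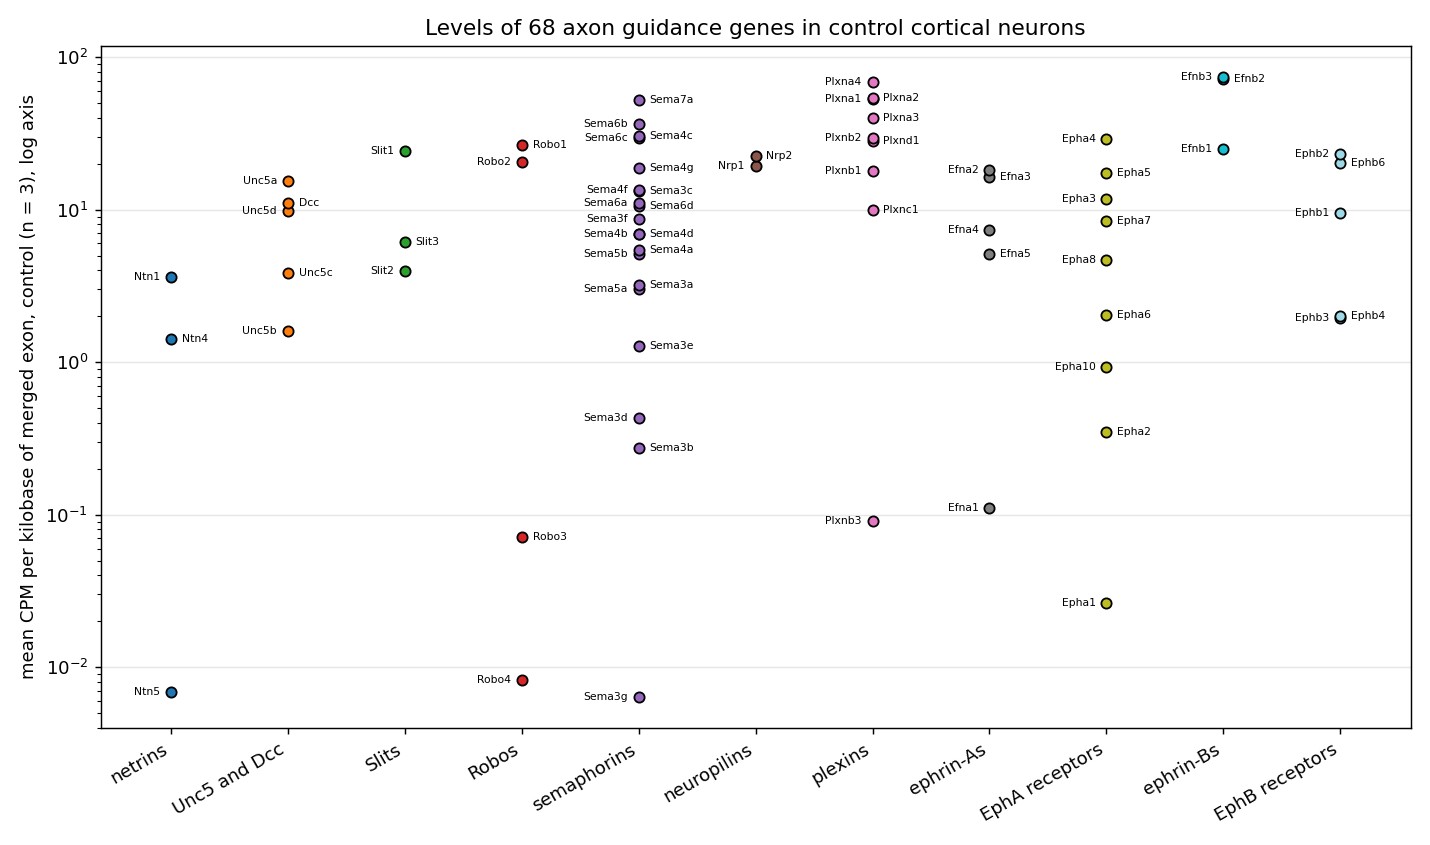
Mean level of each of the 68 guidance genes in the 3 control libraries, in CPM per kilobase of merged exon on a log axis, by family. Efnb3 and Efnb2 are at the top with 74.1 and 71.7, and Sema3g, Ntn5 and Robo4 lie lowest.

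Within most families the levels were carried by a few members. In control, Slit1 held 70.5% of the summed Slit level per kilobase and Ntn1 71.8% of the netrin level. The Slit share rests partly on the long merged exons of Slit2. In CPM the control means were 142 for Slit1, 101 for Slit2 and 37 for Slit3. Robo1, the main Slit receptor of forebrain axons together with Robo2, held 56.4% of the Robo level. Epha4, an unusual EphA that also binds ephrin-Bs, held 39.0% of the EphA level with 29.2 ± 4.13 CPM per kilobase. Ephb2 held 40.9% of the EphB level with 23.2 ± 1.65, a value within the spread of Ephb6, a receptor without kinase activity, at 20.2 ± 3.96. Unc5a held 36.9% of the level of Unc5 and Dcc together, Efna2 38.8% of the ephrin-A level, and Nrp2 53.7% of the neuropilin level. Efna2, at 18.2 ± 1.76 CPM per kilobase, lay within the spread of Efna3 at 16.3 ± 1.98. Exon length also bears on the order of Unc5a and Epha4. In CPM the control means were 64 for Unc5a against 145 for Dcc, and 235 for Epha4 against 292 for Epha5. The plexins were spread more evenly, with 22.8% in Plxna4, and so were the semaphorins, with 20.4% in Sema7a.

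Ligand and receptor families of a pathway stood at unlike levels in the same cultures. Summed per kilobase in control, Dcc and the Unc5 genes came to 41.7 ± 0.228 CPM and the netrins to 5.05 ± 0.825. Robos came to 47.3 ± 1.95 and Slits to 34.1 ± 3.73, a sum in which Slit2 reads low for its long merged exons. Plexins came to 301 ± 14.9, semaphorins to 257 ± 21.8 and the 2 neuropilins to 41.6 ± 2.37. Ephrin-Bs came to 171 ± 10.2 against 56.8 ± 5.23 for EphB receptors, while ephrin-As came to 47.0 ± 3.79 against 74.9 ± 6.83 for EphA receptors.

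The 5 genes that were not tested had few reads in all 9 libraries together. Ntn5 had 1 read, Robo4, the Robo of endothelium, 10, Sema3g 25, Epha1 34 and Efna1 42. The next lowest were tested: Robo3, which modulates midline crossing of axons, with 99 reads, Plxnb3 with 105, Sema3b with 212 and Epha2 with 221.

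Cells given the scaffold with the conducting component, PA + PS2, were first set beside control cells, and the guidance genes were close to level between the groups. Of 63 tested genes 0 passed at an edgeR adjusted p under 0.05, as did 0.0446% of all genes tested. With DESeq2 0 passed too, against 1.43% of all genes. With the repeat number as a block 0 passed as well, against 1.17% of all genes. At an unadjusted p under 0.05, 6 stood lower (Epha2, Slit2, Ntn1, Ntn4, Sema5b and Sema6a), or 9.52%, against 4.54% of all genes, and 0 stood higher, against 1.09%. With the block these counts were 10 lower, or 15.9%, against 5.98% of all genes, and 5 higher (Epha7, Robo2, Efna3, Sema4a and Sema4b), or 7.94%, against 2.12%. Groups did not overlap for 9 genes that were lower in PA + PS2, or 14.3%, against 6.54% of all genes, and for 4 that were higher, or 6.35%, against 5.38%. The median log2 fold change of the 63 genes was -0.05, beside 0.00 over all genes tested. It was -0.01 without control repeat 1 and -0.09 without PA + PS2 repeat 2.

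For most members the data bound the difference from above. The 95% interval of the log2 fold change lay inside 2-fold either way for 56 of the 63 genes, or 88.9%, against 74.8% of all genes tested. The exceptions were Epha2, Robo3, Unc5b, Ntn4, Plxnb3, Sema3b and Sema3d, all under 11 CPM in every group mean. A missed threshold does not show equal levels, and the median interval of a member reached 0.30 on the log2 scale to each side.

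**Figure D2:**
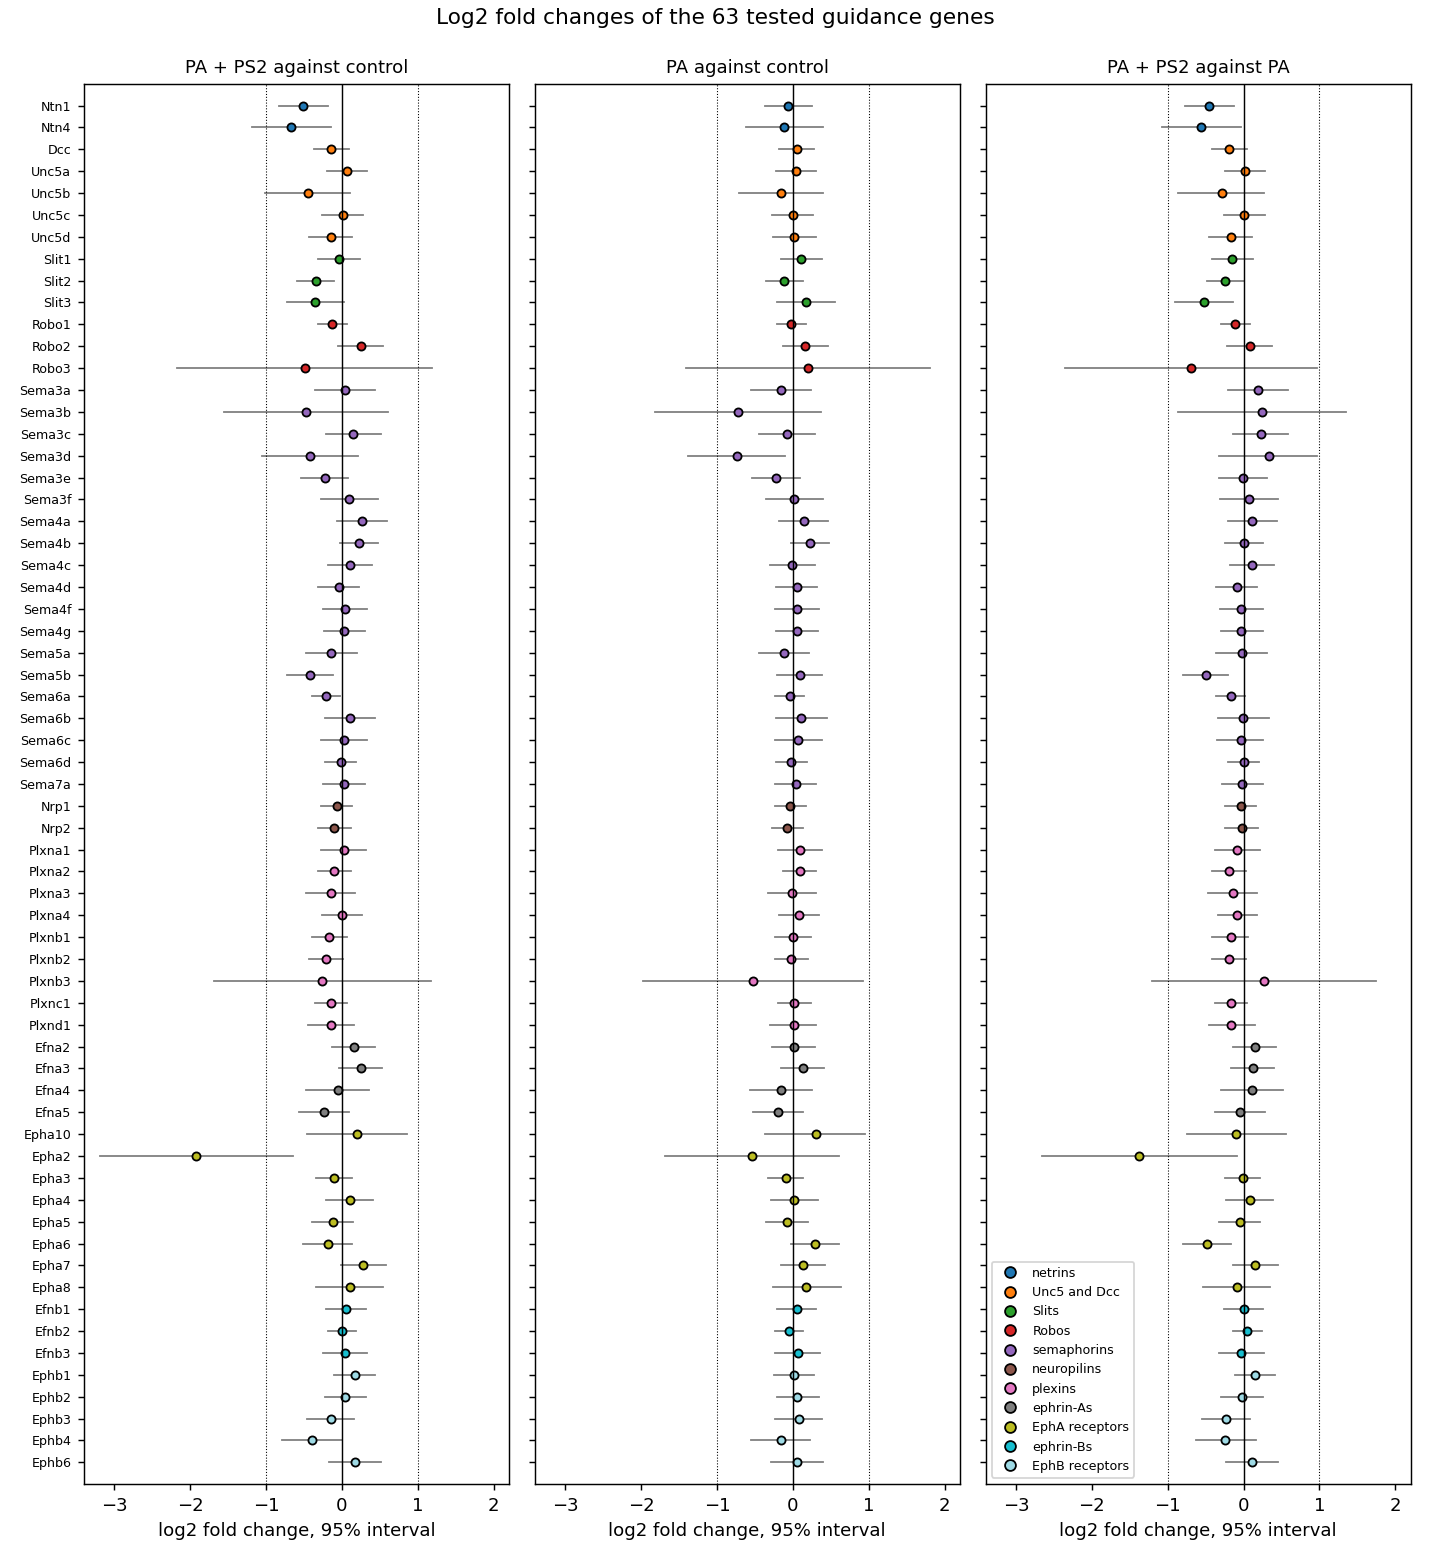
Log2 fold change (points) and 95% interval (lines) of each tested guidance gene in the 3 comparisons, coloured by family, with dotted lines at 2-fold. Points crowd around 0 in all 3 panels, and in the PA + PS2 panels Epha2 lies farthest to the left.

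Both tested netrins had lower fitted levels in PA + PS2 than in control, and neither passed. In what follows, 3 values in a row are CPM in repeats 1, 2 and 3. Ntn1 (ENSMUSG00000020902, mm10 chromosome 11, 68209364 to 68400823) had 15.6, 16.3 and 16.1 CPM in PA + PS2, 25.8, 18.1 and 21.6 CPM in PA, and 21.2, 21.3 and 25.8 CPM in control. All 3 PA + PS2 libraries lay below all 6 others. Its log2 fold change against control was -0.51 ± 0.14 (SE, 95% interval -0.83 to -0.19), and it had the smallest p of the 63 genes (edgeR adjusted p = 0.27).

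Ntn4, a netrin of basement membranes that binds laminins (ENSMUSG00000020019, chromosome 10, 93640681 to 93747207), had 3.85, 2.89 and 3.28 CPM in PA + PS2, 4.72, 4.73 and 5.30 CPM in PA, and 3.78, 5.26 and 6.91 CPM in control. All 3 PA values lay inside the control range, and PA + PS2 repeat 1 lay just above control repeat 1. PA + PS2 stood at -0.67 ± 0.24 against control (edgeR adjusted p = 0.52), and at -0.44 without control repeat 3. Summed per kilobase, the netrins ran from 3.36 to 3.51 CPM in PA + PS2, from 4.14 to 5.38 in PA and from 4.38 to 5.97 in control, with no overlap between PA + PS2 and either other group.

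Dcc, the attractive netrin receptor, had 130, 128 and 136 CPM in PA + PS2, 163, 139 and 149 CPM in PA, and 158, 126 and 151 CPM in control, and the groups overlapped (-0.14 against control, 95% interval -0.37 to 0.09). Unc5a, Unc5c and Unc5d, the repulsive receptors, stood at 0.06 ± 0.12, 0.01 ± 0.12 and -0.15 ± 0.13. Unc5b had 6.69, 9.87 and 5.53 CPM in PA + PS2 and 9.82, 12.9 and 7.50 CPM in control. Each PA + PS2 value lay below the control of the same repeat, though the groups overlapped, at -0.45 ± 0.26 (edgeR adjusted p = 1). Without 1 library its value ran from -0.72 (PA + PS2 repeat 2 left out) to -0.22 (control repeat 2 left out), and it was -0.28 without PA + PS2 repeat 3.

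Among the Slits, Slit2 lay lower in every PA + PS2 library than in control, Slit3 overlapped and Slit1 was near level. Slit2 (ENSMUSG00000031558, chromosome 5, 47983138 to 48307733) had 81.9, 74.4 and 82.5 CPM in PA + PS2, 81.7, 110 and 89.5 CPM in PA, and 98.7, 103 and 101 CPM in control. Every PA + PS2 library lay below every control library, and PA repeat 1 lay among the PA + PS2 values. The log2 fold change against control was -0.34 ± 0.11 (edgeR adjusted p = 0.42).

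Slit3 (ENSMUSG00000056427, chromosome 11, 35121224 to 35708507) had 29.4, 31.8 and 25.8 CPM in PA + PS2, 43.9, 48.8 and 32.1 CPM in PA, and 36.0, 44.4 and 30.5 CPM in control. It was highest in repeat 2 and lowest in repeat 3 of each group, and PA + PS2 repeat 2 lay above control repeat 3. The difference from control was -0.35 ± 0.17 (edgeR adjusted p = 0.98), and -0.19 without control repeat 2. Slit1 stood at -0.04 ± 0.13, with 149, 143 and 125 CPM in PA + PS2 against 161, 143 and 124 CPM in control.

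The Robos leaned in opposite directions by small amounts. Robo1 had 398, 403 and 411 CPM in PA + PS2, 462, 410 and 434 CPM in PA, and 448, 454 and 419 CPM in control, with every PA + PS2 library below every control library, at -0.13 ± 0.09 (edgeR adjusted p = 1). Robo2 had 383, 400 and 459 CPM in PA + PS2 against 350, 298 and 399 CPM in control, higher in each repeat but with groups that overlapped, at 0.25 ± 0.14 (edgeR adjusted p = 1). The difference between these fold changes was not tested.

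Of the 19 tested semaphorins, 11 lay above 0 and 8 below, with a median of 0.03. Sema5b, a transmembrane semaphorin with thrombospondin repeats (ENSMUSG00000052133, chromosome 16, 35541145 to 35664732), was the lowest of those over 10 CPM. It had 27.9, 29.5 and 23.2 CPM in PA + PS2, 42.2, 39.3 and 33.0 CPM in PA, and 31.5, 39.2 and 37.2 CPM in control, with no PA + PS2 library reaching any other. The log2 fold change against control was -0.42 ± 0.14 (edgeR adjusted p = 0.41).

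Sema6a, a membrane-bound ligand of Plxna2 and Plxna4, had 85.3, 84.3 and 82.7 CPM in PA + PS2, 93.2, 101 and 89.5 CPM in PA, and 98.1, 99.4 and 94.7 CPM in control. PA + PS2 lay below both other groups, PA and control overlapped, and PA + PS2 stood at -0.21 ± 0.09 against control (edgeR adjusted p = 0.69). Sema3e, which binds Plxnd1 without a neuropilin, had 10.6, 9.64 and 10.1 CPM in PA + PS2 against 11.4, 12.4 and 11.8 CPM in control, at -0.23 ± 0.14.

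Class 4 semaphorins, ligands of plexin-Bs among other receptors, leaned the other way where they leaned at all. Sema4b had 46.1, 44.6 and 46.9 CPM in PA + PS2 and 42.0, 38.7 and 36.7 CPM in control, groups that did not overlap, at 0.23 ± 0.11 (edgeR adjusted p = 1). Sema4a had 38.1, 36.6 and 30.8 CPM in PA + PS2 against 34.9, 26.9 and 26.2 CPM in control, at 0.26 ± 0.15. Sema4c, Sema4d, Sema4f and Sema4g lay between -0.04 and 0.11. Sema3a, the collapsing signal for cortical axons that acts through Nrp1, stood at 0.04 ± 0.18 and Sema3c at 0.15 ± 0.17, and Sema7a stood at 0.02 ± 0.12 with 179, 171 and 178 CPM in PA + PS2 against 199, 173 and 147 CPM in control.

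The semaphorin receptors were level or slightly lower. Nrp1 and Nrp2 stood at -0.07 ± 0.09 and -0.10 ± 0.10. Of the 9 plexins, 7 lay below 0, with a median of -0.15 and a range of -0.26 to 0.02. Plxnb2, a receptor for class 4 semaphorins, had 199, 202 and 190 CPM in PA + PS2 against 229, 228 and 230 CPM in control, groups that did not overlap, at -0.21 ± 0.10 (edgeR adjusted p = 0.92). Plxna4, the most abundant plexin, had 907, 993 and 999 CPM in PA + PS2 against 988, 875 and 1033 CPM in control, at 0.00 ± 0.12. Plxnb1 and Plxnc1, the receptor of Sema7a, stood at -0.17 ± 0.11 and -0.14 ± 0.10.

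The ephrins lay close to level. Efnb2 had 472, 491 and 511 CPM in PA + PS2, 482, 438 and 502 CPM in PA, and 491, 494 and 489 CPM in control, a log2 fold change against control of 0.00 ± 0.09. Efnb1 and Efnb3 stood at 0.05 ± 0.12 and 0.04 ± 0.13. Efna3 had 47.5, 46.4 and 46.9 CPM in PA + PS2 against 45.1, 37.6 and 36.0 CPM in control, groups that did not overlap, at 0.25 ± 0.13 (edgeR adjusted p = 1), and Efna5 stood at -0.24 ± 0.15.

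Epha2 showed the widest difference of all members, on few reads. This Eph receptor, best known from epithelial cells and tumours (ENSMUSG00000006445, chromosome 4, 141301240 to 141329384), had 0.962, 0.154 and 0.208 CPM in PA + PS2, 1.39, 1.26 and 0.714 CPM in PA, and 1.31, 2.00 and 1.57 CPM in control. These values stand for 20, 4 and 5 reads in PA + PS2, 31, 30 and 19 in PA and 32, 46 and 34 in control. PA + PS2 repeats 2 and 3 lay far below the rest, while repeat 1 lay within the PA values. The difference from control was -1.92 ± 0.58 (95% interval -3.19 to -0.65, edgeR adjusted p = 0.32). It stood at -3.13 without PA + PS2 repeat 1 (edgeR adjusted p = 0.15). In repeats 2 and 3 alone, a choice made after the values were seen, it was -3.27 and passed (edgeR adjusted p = 0.04), and it also passed with no filter on low counts (-1.91, edgeR adjusted p = 0.0057). Over all other settings the adjusted p ran from 0.079 with DESeq2 to 1 without control repeat 2.

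The Eph receptors typical of neurons did not follow Epha2. Epha4 had 235, 256 and 265 CPM in PA + PS2 against 220, 212 and 274 CPM in control, at 0.10 ± 0.14, and Epha5 stood at -0.12 ± 0.13. Epha7, which has a role in cortical progenitors and thalamic input, had 95.5, 96.2 and 114 CPM in PA + PS2, 84.6, 81.1 and 109 CPM in PA, and 81.1, 75.9 and 94.5 CPM in control. Every PA + PS2 library lay above every control library, at 0.28 ± 0.14 (edgeR adjusted p = 0.93), the highest fold change among the 63 genes. Ephb4, the partner of ephrin-B2 in vessels, had 6.93, 7.52 and 6.94 CPM in PA + PS2 against 8.42, 7.87 and 11.8 CPM in control, at -0.39 ± 0.18 (edgeR adjusted p = 0.89), and at -0.19 without control repeat 3. Of its exons 33 bases overlap Zan on the opposite strand. Ephb1, Ephb2, Ephb3 and Ephb6 lay between -0.15 and 0.17.

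**Figure D3:**
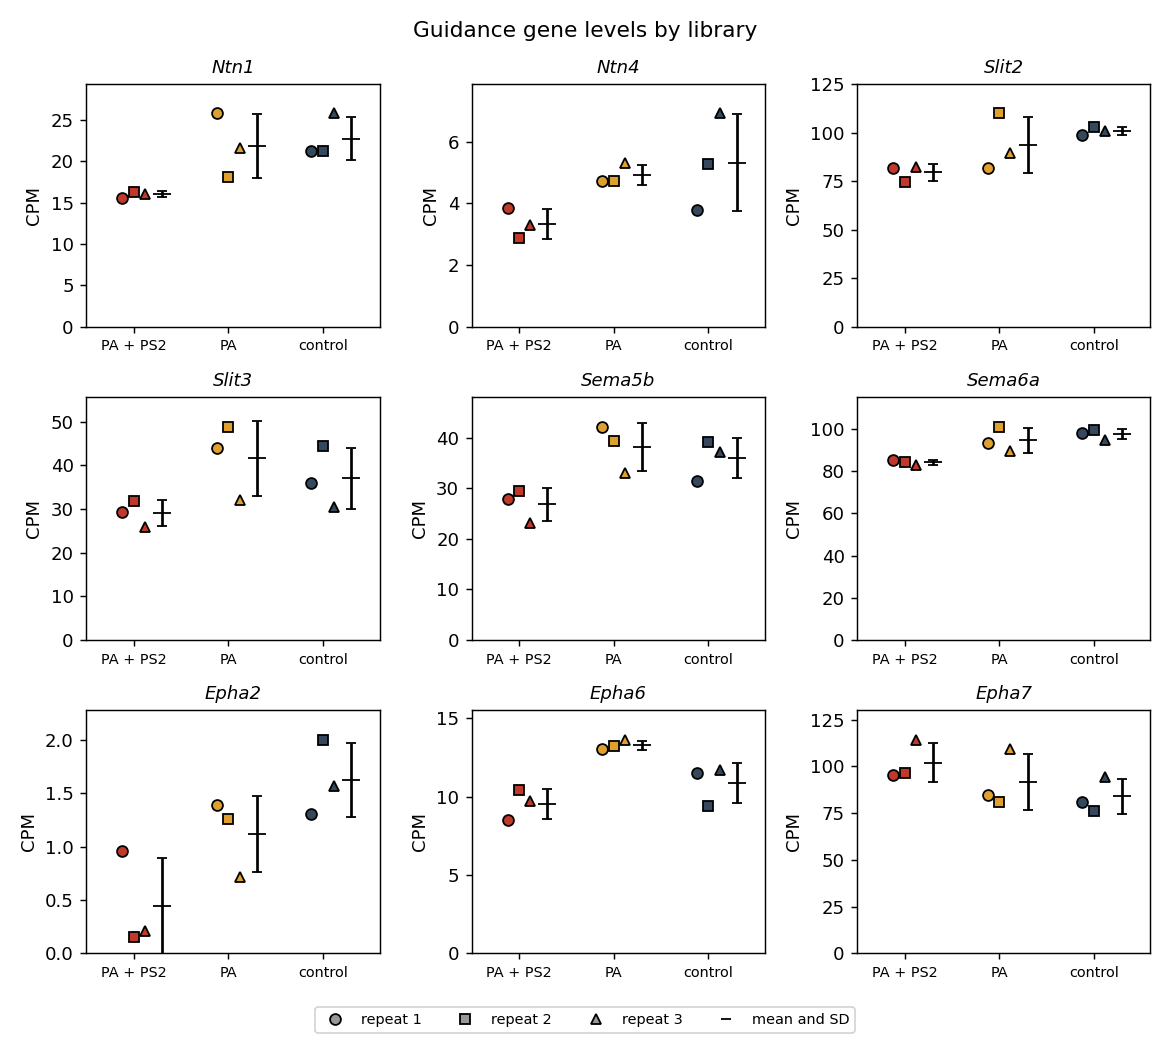
CPM of 9 guidance genes in each library, with PA + PS2 left, PA in the middle and control right. Marker shapes give the repeat and the bar gives the mean and SD. Ntn1 and Sema5b in PA + PS2 lie below all 6 other libraries, and Epha2 in PA + PS2 ranges from 0.154 to 0.962 CPM.

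Outside neurons and interneurons, the marker sets had median log2 fold changes below 0 in PA + PS2 against control. For fibroblasts, pericytes and meninges the median log2 fold change in PA + PS2 against control was -1.70, with 9 of 9 tested markers below 0. Their levels in the 2 groups did not overlap, and Col1a1, a defining marker, averaged 8.09 CPM in PA + PS2 against 35.9 in control. For dividing cells the median was -1.23 with 8 of 8 below 0, and for radial glia and progenitors -0.73 with 7 of 8 below 0 (259 to 284 CPM in PA + PS2, 382 to 455 in PA and 313 to 515 in control). The medians were -0.33 for astrocytes (6 of 8 below 0, summed level 174 to 206 CPM in PA + PS2, 223 to 273 in PA and 172 to 279 in control), -0.88 for the oligodendrocyte lineage (6 of 8), -0.62 for microglia (4 of 6) and -0.69 for endothelium (3 of 4). Not every defining marker of these types was lower. Gfap averaged 2.75 CPM in PA + PS2 against 0.824 in control, Aqp4 0.977 against 0.863, Mbp 35 against 25.3 and Pecam1 0.913 against 0.649. Csf1r was near level, Cldn5 had almost no reads, and Aldh1l1, Olig2, Sox10, Cx3cr1, C1qa and Cdh5 had lower means. Markers of neurons stood at 0.06, with 3 of 8 below 0, and those of interneurons at 0.08, with 1 of 8. Of 67 tested marker genes 0 passed in edgeR. At an unadjusted p under 0.05, 30 stood lower, or 44.8%, against 4.54% of all genes, and 2 higher, or 2.99%, against 1.09%. In DESeq2 17 passed, or 25.4%, against 1.43% of all genes, all 17 lower in PA + PS2. In bulk RNA, fewer cells of a type and less RNA per cell cannot be told apart, and the part of these cells in the values of Ntn1, Ntn4, Slit2, Slit3, Sema5b and Epha2 was not tested.

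For the scaffold without PS2, PA against control, the guidance genes again lay near level. Of the 63 genes 0 passed in edgeR, as did 0% of all genes tested, and in DESeq2 0 passed, as did 0% of all genes. At an unadjusted p under 0.05, 1 gene stood lower, or 1.59%, against 0.668% of all genes, and 0 stood higher, against 0.554%. Groups did not overlap for 2 genes that were lower in PA (Sema3b and Sema3d), or 3.17%, against 2.07% of all genes, and for 1 that was higher (Epha6), or 1.59%, against 1.97%. The median log2 fold change was 0.02, beside -0.01 over all genes, with 36 genes above 0 and 27 below. It was -0.05 without PA repeat 1. The 95% interval lay inside 2-fold either way for 58 of the 63 genes.

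Sema3d, a secreted semaphorin (ENSMUSG00000040254, chromosome 5, 12383385 to 12588948), had the smallest p of the members in this comparison. It had 1.35, 2.6 and 2.71 CPM in PA, 2.6, 2.81 and 2.95 CPM in PA + PS2, and 4.48, 3.91 and 2.76 CPM in control. PA lay below control in every repeat, in repeat 3 narrowly, and the log2 fold change was -0.74 ± 0.29 (95% interval -1.38 to -0.10, edgeR adjusted p = 1), and -0.49 without PA repeat 1. PA + PS2, compared with the same control libraries, stood at -0.42 ± 0.29.

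Epha6 had 13.0, 13.2 and 13.6 CPM in PA against 11.5, 9.39 and 11.7 CPM in control, groups that did not overlap, at 0.29 ± 0.14 (edgeR adjusted p = 1). Sema3b stood at -0.72 ± 0.50 on 15 to 21 reads per PA library and 28 to 33 per control library. Sema4b, Sema3e, Efna5, Robo2 and Epha2 completed the 8 members with the smallest p, at 0.23 ± 0.11, -0.22 ± 0.14, -0.19 ± 0.15, 0.16 ± 0.14 and -0.54 ± 0.53. Ntn1 and Ntn4 stood at -0.06 and -0.11, Slit2 and Slit3 at -0.11 and 0.17, and Sema5b at 0.09.

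PA + PS2 was compared with PA to ask what accompanied the added component on the same peptide. Of the 63 genes 0 passed in edgeR without a block, as did 0% of all genes, and 0 passed in DESeq2, against 0.815% of all genes. At an unadjusted p under 0.05, 6 stood lower in PA + PS2 (Epha2, Epha6, Slit3, Ntn1, Ntn4 and Sema5b), or 9.52%, against 4.58% of all genes, and 0 stood higher, against 1.03%. Groups did not overlap for 10 genes that were lower, or 15.9%, against 6.32% of all genes, and for 0 that were higher, against 3.32%. The 10 were Epha6, Ephb3, Ephb4, Slit3, Dcc, Ntn1, Ntn4, Plxnb2, Sema5b and Sema6a. This comparison and that of PA + PS2 with control use the same 3 PA + PS2 libraries, so a gene low in those libraries is low in both.

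The median log2 fold change over the 63 genes was -0.03, beside 0.01 over all genes, with 21 above 0 and 42 below. It was 0.00 without PA repeat 1 and -0.09 without PA repeat 2. Sema5b stood at -0.50 ± 0.14 (95% interval -0.80 to -0.21, edgeR adjusted p = 0.35), Ntn1 at -0.45 ± 0.14 (0.51), and Slit3 at -0.52 ± 0.17 (0.53), for which PA + PS2 repeat 2 (31.8 CPM) lay just under PA repeat 3 (32.1 CPM). With the repeat number as a block, Slit3 stood at -0.50 and passed (adjusted p = 0.049 from edgeR). Slit3 was the 1 gene of the 63 to pass with the block, or 1.59%, against 57 of the 15712 genes tested. The repeat 1 libraries of PA + PS2 and PA deviated together with a correlation of only 0.0147, so the pairing behind the block is uncertain here. Epha6, at 8.47, 10.4 and 9.69 CPM in PA + PS2 and 13.0 to 13.6 CPM in PA, stood at -0.48 ± 0.14 (edgeR adjusted p = 0.44) and at -0.19 ± 0.15 against control. Of its exons 107 bases overlap Gm9017, annotated as antisense, on the opposite strand, and the labels do not say whether counting used strand. Ntn4, Epha2, Slit2 and Sema6a stood at -0.56 ± 0.24, -1.38 ± 0.59, -0.24 ± 0.11 and -0.17 ± 0.09. Without 1 library Epha2 moved to -2.58 (PA + PS2 repeat 1 left out), and Slit2 and Sema6a to -0.09 and -0.10 (PA repeat 2 left out). Of the 9 plexins 8 lay below 0, with a median of -0.16.

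Markers of some other cell types were mostly lower against PA as well, and those of others were mixed. The median log2 fold change in PA + PS2 against PA was -1.27 for fibroblasts, pericytes and meninges (9 of 9 below 0), -1.18 for dividing cells (8 of 8), -0.83 for astrocytes (7 of 8) and -0.71 for radial glia and progenitors (7 of 8), beside 0.01 for neurons. It was -0.73 for the oligodendrocyte lineage (4 of 8), -0.47 for microglia (3 of 6), -0.62 for endothelium (3 of 4) and 0.15 for interneurons (0 of 8). Of the 67 markers 0 passed in edgeR, 29 stood lower at an unadjusted p under 0.05, or 43.3%, against 4.58% of all genes, and 13 passed in DESeq2, or 19.4%, against 0.815%. Their part in the values of Ntn1, Ntn4, Slit3, Sema5b, Epha2 and Epha6 was not tested.

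For some genes repeat 1 lay at the same end of all 3 groups. In 15 of the 63 genes, or 23.8%, repeat 1 was the highest of the 3 repeats in all 3 groups, against 10.1% of all genes tested. In 5, or 7.94%, it was the lowest in all 3, against 12.7%. The 15 included Plxnd1, Plxnb1, Nrp2, Slit1, Unc5a, Efnb3, Sema7a and 5 class 3 or class 4 semaphorins (Sema3f, Sema4a, Sema4d, Sema4f and Sema4g). Epha3, Epha5, Unc5d, Sema3a and Sema5a were lowest. Sema3a, for example, had 40.3, 44.9 and 51.6 CPM in PA + PS2, 28.8, 42.1 and 48.7 CPM in PA, and 37.8, 44.3 and 51.1 CPM in control, a spread within each group larger than the difference between groups.

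**Figure D4:**
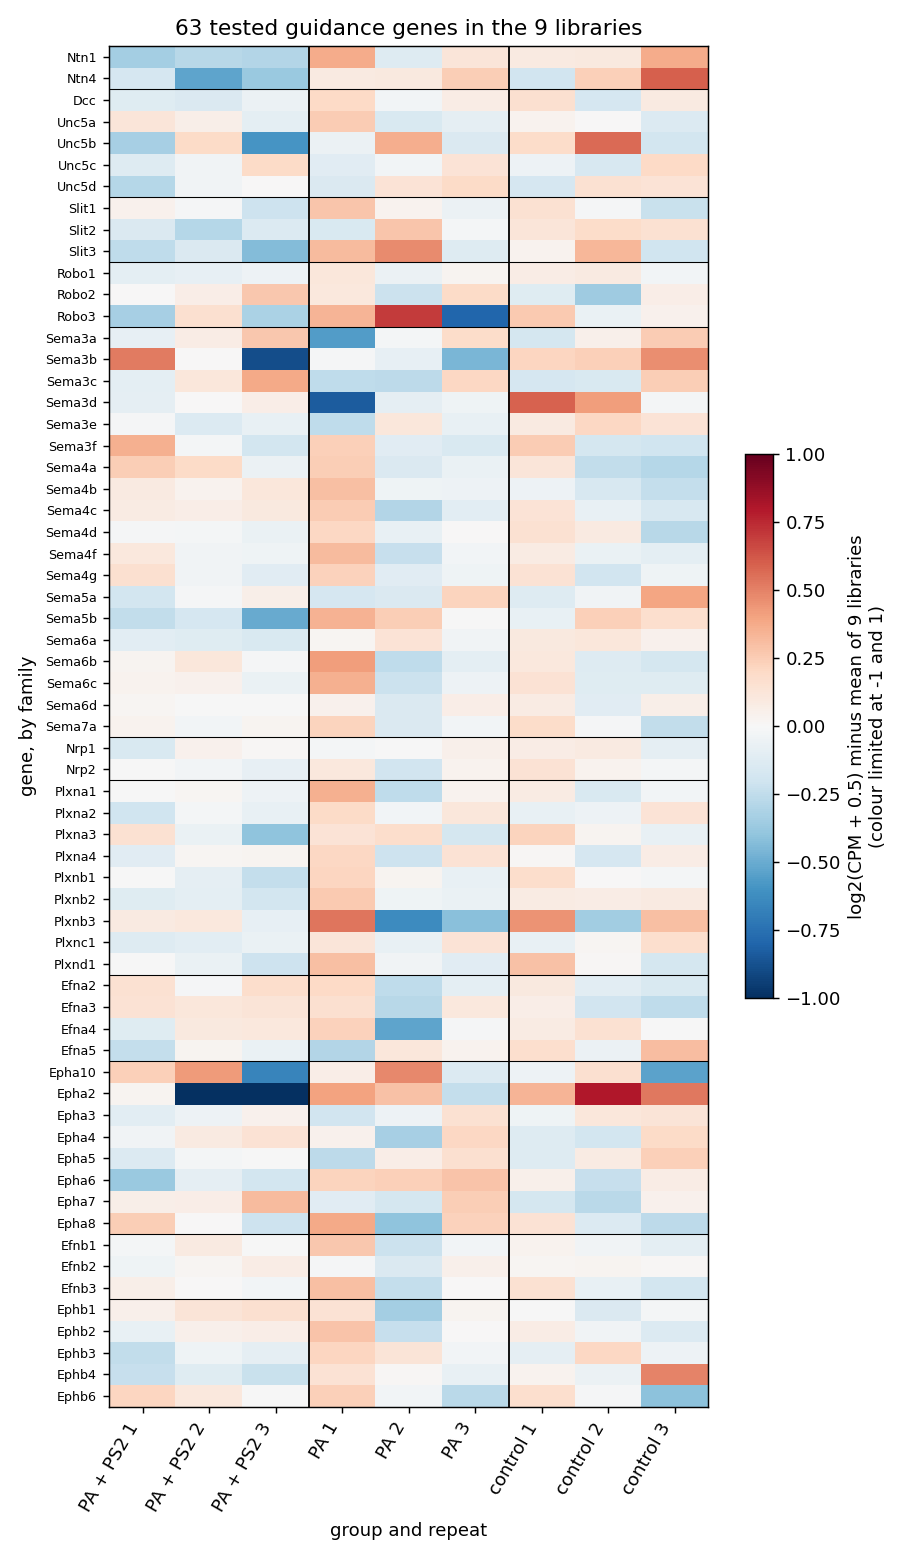
Log2(CPM + 0.5) of each tested guidance gene in each library, minus its mean over the 9 libraries, with colours limited at -1 and 1 and families separated by lines. In the column of PA repeat 1, 47 of the 63 genes lie above their mean, the rows of Ntn1 and Ntn4 lie below it in all 3 PA + PS2 libraries, and Epha2 lies below it in PA + PS2 repeats 2 and 3.

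Of 79 other genes of guidance pathways, 33 cues and receptors outside the families above and 46 signalling proteins, all were tested. DESeq2 passed 1, Dock1, in both comparisons of PA + PS2, or 1.27%. Of all genes, DESeq2 passed 1.43% in PA + PS2 against control and 0.815% against PA. In the main edgeR fit, which has no block, 0 of the 79 passed in any comparison. At an unadjusted p under 0.05, 2 stood lower in PA + PS2 against control, or 2.53%, against 4.54% of all genes, and 1 higher, or 1.27%, against 1.09%. In PA against control the count was 0 in both directions, against 0.668% of all genes lower and 0.554% higher. In PA + PS2 against PA 1 stood lower, or 1.27%, against 4.58%, and 0 higher, against 1.03%. The medians were -0.01, 0.02 and -0.01. Dock1, an exchange factor that activates Rac and acts downstream of Dcc, stood out in both comparisons of PA + PS2. It had 3.42, 4.82 and 4.07 CPM in PA + PS2, 9.40, 9.09 and 8.61 CPM in PA, and 5.71, 10.3 and 10.5 CPM in control, so that no PA + PS2 library reached any other. Its log2 fold change against control was -1.10 ± 0.24 (edgeR adjusted p = 0.11). Blocking on repeat number, it passed (-1.09, adjusted p = 0.031 from edgeR), or 1.27% of the 79 genes, against 1.17% of all genes. With that block it passed against PA too (-1.16, adjusted p = 0.039 from edgeR), again 1.27%, against 57 of the 15712 genes tested.

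Wnt5a, a repellent for cortical axons through Ryk, had 18.8, 20.7 and 22.8 CPM in PA + PS2 against 22.4, 25.2 and 28.4 CPM in control, at -0.29 ± 0.12 (edgeR adjusted p = 0.76). Ablim1, an actin-binding protein linked to netrin signalling, had 131, 133 and 137 CPM in PA + PS2 against 118, 112 and 108 CPM in control, at 0.24 ± 0.10 (edgeR adjusted p = 0.77). Ntng1 and Ntng2, the membrane-anchored netrin-Gs, and Boc, a co-receptor of Sonic hedgehog, stood at -0.47 ± 0.24, -0.29 ± 0.17 and -0.48 ± 0.27. Against PA, Dock1 stood at -1.13 ± 0.24 (edgeR adjusted p = 0.24), and Cdon, Pak1, Mical1, Ngef and Ryk followed by p, between -0.39 and 0.20. In PA against control, Ablim1, Ryk, Flrt3, Lrig2, Ptprf and Celsr2 had the smallest p, between -0.20 and 0.19.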

How the data were processed

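The deposited files hold whole-number read counts per gene for 9 libraries. Per the labels, RNA was taken with a micro-scale column kit and libraries with a TruSeq total RNA kit. Per the submitters' processing notes, build mm10 and the tools cutadapt 4.2, STAR 2.7.5, HTSeq 2.0.2 and DESeq2 1.14.1 were used, with roles, strand setting and annotation release not given in the sources used here. Symbols and exons came from GENCODE M21, which matched 54165 of 54232 identifiers.

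Groups follow the titles. The counts were fitted with edgeR 4.0.16 (quasi-likelihood F test, TMM scaling, R 4.3.3) over all 9 libraries without a block, with 6 residual degrees of freedom. The filterByExpr rule, set to a count minimum of 10 and a total of 15, left 15712 genes and 99.9% of counts. Benjamini-Hochberg adjustment ran over all of them, with a threshold of 0.05. CPM uses TMM-scaled library sizes. Intervals of fold changes use the fitted standard error. Read totals, 20746851 to 27237398, set the counting precision, which is poor for members with few reads.

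Members, gene lists and tests were chosen with earlier results of these data known. Named genes are the 20 members with the smallest p for PA + PS2 against control, the 8 smallest for each other comparison, the highest of each family, the untested members and the 6 smallest of the 79 other pathway genes; other members were added after their values were seen. Same-numbered libraries deviated together, with correlations of 0.183, 0.217 and 0.135 between PA + PS2 and control and 0.422, 0.365 and 0.28 between PA and control, so a block on repeat number was fitted too. That these libraries pair was inferred from their counts; no label explains the numbers. Other settings were DESeq2 1.42.0, RLE scaling, no filter on low counts, only the groups compared, and each library left out.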

Additional observations from a re-analysis of the deposited data

How the results depend on the processing

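Among 540 values of named genes under other settings, 535 kept their direction and their side of the threshold, 5 newly passed, 0 ceased to pass and 0 changed direction. As reported 0 of these genes passed, so ceasing to pass could not occur. The count of all genes passing in PA + PS2 against control, 7 as reported, was 184 with the repeat block, 17 with RLE scaling, 365 with no filter on low counts, 224 with DESeq2, 28 with only the groups compared and 125 in repeats 2 and 3 alone, a setting chosen after seeing the data. Leaving out 1 library gave 0 to 175, with 175 without control repeat 1 and 0 without PA + PS2 repeat 1, control repeat 2 or control repeat 3. In PA against control it was 0, 23 with no filter, and 0 to 0 without any 1 library. In PA + PS2 against PA it was 0, 57 with the block, 330 with no filter, 128 with DESeq2, 3 in repeats 2 and 3 alone, and 0 to 37 without 1 library, with 37 without control repeat 1.

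Guidance genes passing in PA + PS2 against control were 1 with no filter and 1 in repeats 2 and 3 alone, each time Epha2, and 0 to 0 without any 1 library. In PA + PS2 against PA they were 1 with the block (Slit3, -0.50, edgeR adjusted p = 0.049) and 2 with no filter (Sema5b, -0.51, 0.042, and Slit3, -0.52, 0.028), with 0 to 0 without any 1 library. For that comparison the correlations of same-numbered libraries were 0.0147, 0.292 and 0.302. The value near 0 is that of repeat 1, so whether the numbers pair these libraries stays unsettled. Numbers that pair each group with control would pair these groups too. Among the other pathway genes, the count was 1 with the block, 1 with no filter and 1 with DESeq2 in both comparisons of PA + PS2, 1 in repeats 2 and 3 alone against control, and 0 to 1 without 1 library. The block changed no other call of a named gene. The median of the guidance genes ran from -0.09 to -0.01 without 1 library in PA + PS2 against control and was 0.02 in repeats 2 and 3 alone, ran from -0.05 to 0.06 in PA against control, and ran from -0.09 to 0.00 in PA + PS2 against PA, with 0.00 in repeats 2 and 3 alone. The causes of these shifts were not tested. Depth limits Epha2, Robo3, Plxnb3 and Sema3b, whose libraries hold 1 to 46 reads each.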
